A study of Mus musculus with 12 samples.

Results

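The genes described here are the replication-dependent histone genes, which encode the histones that package newly made DNA. They were chosen as every gene ID whose mouse symbol begins with Hist1, Hist2, Hist3 or Hist4 followed by a histone class, which gave 70 of the 56980 IDs in the table. By class these were 6 genes of the linker histone H1, 20 of H2A, 19 of H2B, 12 of H3 and 13 of H4. By symbol 56 were Hist1 genes on chromosome 13, 10 Hist2 genes on chromosome 3, 3 Hist3 genes on chromosome 11 and 1, Hist4h4, on chromosome 6. Of the Hist1 genes 55 lay together between 21899933 and 24118834 (GRCm39), and Hist1h2al, at 51356763, lay 27.2 Mb beyond them and belongs to Hist1 by symbol only. Of the 70 genes 67 were annotated as protein coding, and Hist1h2al, Hist1h2aj and Hist3h2bb-ps as pseudogenes. The genes were small, with a median exon length of 532 bases, and 64 had a single exon interval.

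The cells were NIH/3T3, an immortalised line of wild-type mouse embryonic fibroblasts. For 8 h they received 200 nM carfilzomib (CFZ), a proteasome inhibitor, 5 µM doxorubicin (DOX), an anthracycline drug that binds DNA and traps topoisomerase II on it, both drugs together (CFZ-DOX), or the vehicle DMSO. Each group held 3 libraries of polyadenylated RNA, identified here by treatment and replicate. The labels do not state whether replicates came from separate cultures, so each p-value reflects the spread among these libraries, which could be technical.

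In dividing cells these genes are transcribed together at the start of S phase with the coactivator NPAT. Their messages normally carry no poly(A) tail: U7 snRNP directs cleavage of the transcript just after a conserved stem-loop, and the stem-loop binding protein SLBP stays with the message. When DNA synthesis stops, the messages are normally degraded from that end. Libraries of polyadenylated RNA therefore do not sample the usual form of these transcripts, and the values below are levels of histone RNA in polyadenylated RNA, not in all RNA.

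The stem-loop is shown first because it defines the usual end of these messages. It was searched for on the transcript strand of GENCODE M21 transcripts (GRCm38) as the 16 bases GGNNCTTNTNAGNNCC with arms that can pair. It was found in 46 of the 70 genes (65.7%) and in 15 of 55380 other annotated genes (0.0271%). Capitals mark the paired arms and lower case the loop and up to 5 flanking bases on each side.
Hist1h1c: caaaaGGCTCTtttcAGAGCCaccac
Hist1h2ac: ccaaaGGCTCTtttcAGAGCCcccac
Hist1h2ao: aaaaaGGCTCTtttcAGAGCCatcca
Hist1h3d: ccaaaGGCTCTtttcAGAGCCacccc
Hist1h3g: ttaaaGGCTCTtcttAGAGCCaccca
Hist1h4d: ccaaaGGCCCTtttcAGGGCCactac
Hist1h4i: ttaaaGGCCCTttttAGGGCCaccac
Hist2h4: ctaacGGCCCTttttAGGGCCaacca
The 46 sites held 8 different 16-base sequences. The form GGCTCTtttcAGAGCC was the most frequent, in 26 genes of the H1, H2A, H2B and H3 classes. The form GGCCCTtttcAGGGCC occurred in 7 genes, each of them an H4 gene. The annotated transcripts differed in where they end relative to this site. Those of 23 genes ran at least 100 bases past it, for example by 840 bases in Hist1h1c, 2010 in Hist1h2ac, 752 in Hist1h3d, 330 in Hist1h4i and 1257 in Hist2h4. Those of the other 23 ended within 100 bases, for example 31 bases after it in Hist1h2ao and 47 in Hist1h3g. In 24 genes no stem-loop lay in the annotated transcript, which says only that these letters are not in it.

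The 12 libraries held 28278879 to 42033993 counts. DOX 3 and CFZ-DOX 3 stood apart from the other replicates of their groups: log CPM (counts scaled to the library's total) correlated across genes with r of 0.9785 and 0.9822 for DOX 3 and 0.9743 and 0.9778 for CFZ-DOX 3, against 0.9905 between DOX 1 and DOX 2 and 0.985 between CFZ-DOX 1 and CFZ-DOX 2. Leaving both out together moved no count of rises or falls against DMSO or against CFZ by over 1.5 times. Ribosomal protein genes took 4.12 ± 0.256% of counts in CFZ, 6.91 ± 0.295% in DOX and 10.1 ± 0.336% in CFZ-DOX, against 4.1 ± 0.181% in DMSO (SD, n = 3 each). The part of this shift in the results was not tested, and calls that held under 5 scalings are given beside the counts. Summed fibroblast markers (9 genes) were at 17851 to 27627 CPM in CFZ, 28457 to 65362 in DOX, 41871 to 103170 in CFZ-DOX and 24569 to 31723 in DMSO. Of these 9 genes 3 were called lower in CFZ (14.4% of all genes), 3 higher and 2 lower in DOX (36.1% and 31.3%), and 6 higher and 2 lower in CFZ-DOX (39.3% and 35.7%). Pdgfra and Pdgfrb were the 2 lower genes in DOX and in CFZ-DOX. Summed markers of epithelium (4 genes), blood (3) and endothelium (3) were at no more than 3.52, 13.4 and 3.43 CPM in any library. The blood sum was highest in CFZ-DOX (10.4 to 13.4 CPM, against 0.895 to 1.35 in DMSO). There it was mostly Cd68 (10.8, 10.3 and 13.3 CPM), while Ptprc and Cd3e were at no more than 0.211 and 0.0405 CPM in any library. Their part in the results was not tested.

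Summed over all 70 genes, histone RNA fell to less than its vehicle level in CFZ libraries and was higher than vehicle in every library with doxorubicin. The sum was 14.1, 14.1 and 9.03 CPM of the library total in CFZ, 105, 79 and 66.3 CPM in DOX and 84.2, 65.8 and 72.9 CPM in CFZ-DOX, against 32.7, 26.2 and 26.7 CPM in DMSO. The CFZ libraries lay below all DMSO libraries and both sets with doxorubicin above them, while DOX and CFZ-DOX overlapped. Mean ratios to DMSO were 0.436 for CFZ, 2.93 for DOX and 2.6 for CFZ-DOX (two-sided exact permutation p = 0.1 each, the smallest that 3 libraries against 3 allow). CFZ-DOX was 5.98 times CFZ (exact permutation p = 0.1) and 0.889 times DOX (exact permutation p = 0.6). Where the sum was scaled to ribosomal protein genes, the log2 ratio of CFZ-DOX to DMSO was 0.07 in place of 1.38. Bulk counts cannot tell fewer cells that carry a transcript from less of it per cell.

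**Figure D1:**
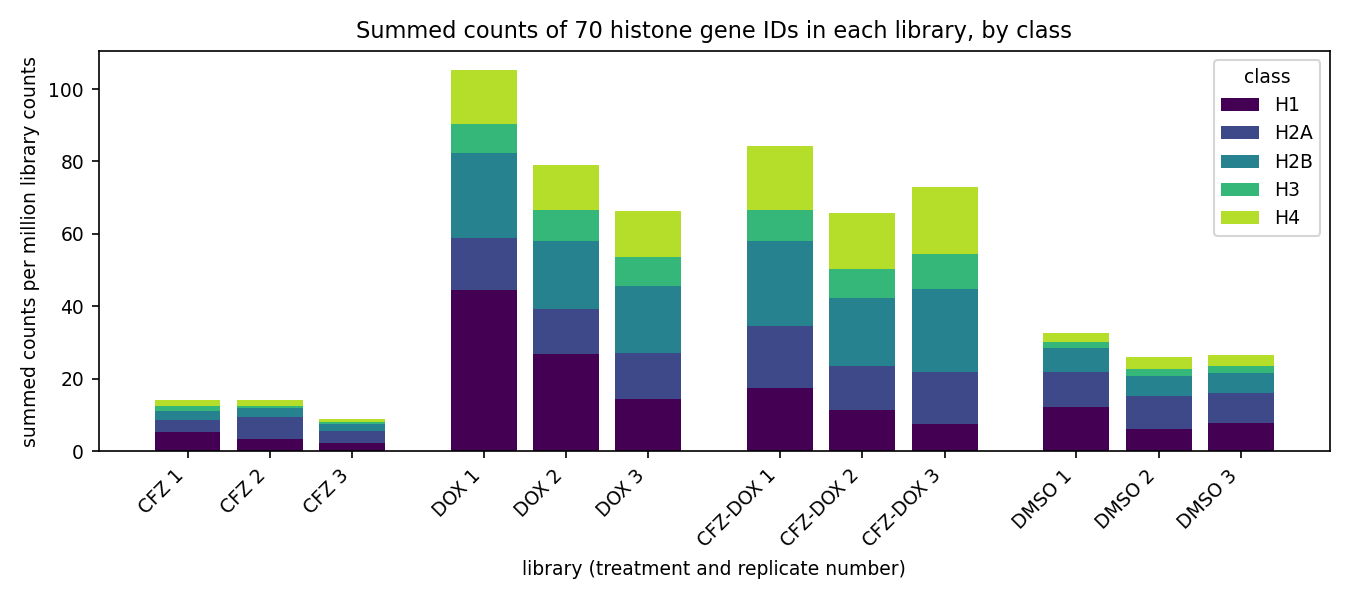
Summed counts of the 70 histone gene IDs in each library, in CPM of the library total, stacked by histone class, with the treated groups to the left of DMSO. CFZ libraries reach 9.03 to 14.1, DOX libraries 66.3 to 105, CFZ-DOX libraries 65.8 to 84.2 and DMSO libraries 26.2 to 32.7.

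The classes did not contribute alike. The H1 sum was 28.6 ± 15.1 CPM in DOX and 12.2 ± 5.15 CPM in CFZ-DOX, against 8.77 ± 3.16 CPM in DMSO, so that CFZ-DOX overlapped DMSO. Hist1h1c made up much of this sum, with 1701 of 1872 H1 counts in DOX 1 and 367 of 411 in DMSO 1. Of 5 tested H1 genes 3 were called higher in CFZ-DOX than in DMSO, against 39.3% of all genes. The H4 sum was 13.3 ± 1.5 CPM in DOX and 17.1 ± 1.45 CPM in CFZ-DOX, against 3.06 ± 0.378 CPM in DMSO. Its ratio of DOX to DMSO was 4.36, close to the 4.52 of H3, while that of H2B was 3.45 and that of H2A 1.46. In CFZ all 5 class sums lay below every DMSO library, at ratios of 0.383 (H2B) to 0.471 (H2A). Among clusters, the Hist2 sum was 9.82 ± 1.63 CPM in DOX and 15.4 ± 5.65 CPM in CFZ-DOX, against 1.83 ± 0.302 CPM in DMSO, ratios of 5.36 and 8.43. The Hist1 sum gave ratios of 2.73 for DOX and 2.14 for CFZ-DOX, and the single gene Hist4h4 6.97 and 10.1. In CFZ the Hist1 sum lay below every DMSO library, at a ratio of 0.422. The CFZ sums of Hist2 (ratio 0.557), Hist3 (0.712) and Hist4h4 (0.672) overlapped those of DMSO. Differences between classes and between clusters in these ratios were not tested.

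Many of these genes were detected only at low counts without doxorubicin. A DOX library held 59 to 61 of the 70 genes with at least 1 count and a CFZ-DOX library 60 to 62, against 43 to 50 in CFZ and 53 to 56 in DMSO. With at least 10 counts there were 6 to 13 genes in CFZ, 42 to 46 in DOX, 40 to 44 in CFZ-DOX and 13 to 19 in DMSO. Of the 70 genes 45 passed the filter on low counts and were tested with edgeR. Many passed only through the libraries with doxorubicin, in which they were high. The filter therefore favours rises where these libraries are compared with DMSO or CFZ. The counts of rises and falls and the medians below describe the tested genes and not the class. Set beside those of all genes, they carry the same limit. Of the other 25 genes, 7 had 0 counts in all 12 libraries (Hist1h1t, Hist1h2aa, Hist2h2aa1, Hist2h2aa2, Hist2h2bb, Hist2h3b and Hist2h3c1), which allows up to 3 counts a library. The remaining 18 had totals of 1 to 71 counts. The 25 untested genes together had 53 counts in CFZ, 309 in DOX and 296 in CFZ-DOX, against 95 in DMSO, and 17 of them had more counts in DOX than in DMSO.

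Near-identical copies limit what single genes can show. All 50-base words of 5 genes (Hist2h2aa1, Hist2h2aa2, Hist2h2bb, Hist2h3b and Hist2h3c1) occurred in another annotated gene, and each of the 5 had 0 counts. Read length and the treatment of reads with several matches are not given in the sources used here. Of the 45 tested genes 23 shared under 50% of their 50-base words with another gene and 22 at least 50%. Exons of 26 of the 70 genes overlapped another gene, mostly small unnamed genes opposite H2A genes, and the strand setting of the counting is not given. Hist1h2be and Hist1h1e overlapped each other on the same strand, so the values of both are uncertain there. Hist1h2be shared 16.3% of its words and Hist1h1e 32%. Among the genes named below, Hist1h2ao, Hist1h2ap and Hist1h3b shared 93.5, 93.1 and 60.4% of their words, Hist1h4i 28.9%, Hist1h3d 24.8%, Hist1h2ac 14.1%, Hist1h4d 10.2%, Hist1h1c 8.5% and Hist2h4 1%, and Hist2h2be none. Sharing was also high in Hist1h2af (94%), Hist1h3i (87.6%), Hist1h2bn (86.4%), Hist1h2bl (82.8%), Hist1h2al (67.6%) and Hist1h3g (54.1%), so the values of these genes are uncertain in the same way.

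After carfilzomib alone, tested histone genes were lower or not called, and none was called higher. Of 45 tested genes 10 were called lower at an adjusted p under 0.05, against 14.4% of all 16648 genes tested, and 0 were called higher, against 14.4% (unadjusted p under 0.05: 16 lower and 0 higher; DESeq2 and limma-voom also gave 0 higher). The median log2 fold change was −0.99 over the 45 genes and −0.01 over all genes. The libraries of both groups did not overlap in 16 genes, all lower in CFZ, against 28.1% of all genes (0 higher, against 27.8%). By class 5 of 9 H2B, 2 of 15 H2A, 2 of 8 H3, 1 of 8 H4 and 0 of 5 H1 genes were called lower. The count of falls was 9 where calls had to hold in all 5 scalings, and 6 without CFZ 3.

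The largest fall among genes averaging at least 1 CPM was that of Hist1h4i, an H4 gene (chromosome 13, 22224806 to 22225532, GRCm39). It was at 0.298, 0.389 and 0.094 CPM in CFZ libraries, against 1.19, 1.45 and 0.973 CPM in DMSO libraries. All CFZ libraries lay below all DMSO libraries (log2 fold change −2.16, SE 0.53, edgeR adjusted p = 0.00675). Hist1h2be, an H2B gene, was at 0.208, 0.0973 and 0.0313 CPM in CFZ, against 0.515, 0.321 and 0.544 CPM in DMSO, again without overlap (−1.98, SE 0.47, adjusted p = 0.00577). Hist1h2bc, the H2B gene with the highest mean count, was at 1.25, 0.657 and 0.689 CPM in CFZ, against 3.96, 2.46 and 2.26 CPM in DMSO. It fell by 1.74 (SE 0.54, adjusted p = 0.025), a call that was lost without CFZ 2, CFZ 3 or DMSO 1 and with no filter on low counts. Hist2h2be, an H2B gene of the Hist2 cluster, averaged 0.488 ± 0.177 CPM in CFZ and 1.06 ± 0.217 CPM in DMSO (−1.13, SE 0.31, adjusted p = 0.0124), a call lost without CFZ 2, CFZ 3 or DMSO 2. Hist1h1c, the linker histone gene with the highest mean count, averaged 3.05 ± 1.35 CPM in CFZ and 7.06 ± 2.6 CPM in DMSO and was not called (−1.21, SE 0.74, adjusted p = 0.258). With the replicate number as a block it was called, at −1.31.

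Doxorubicin alone was followed by higher levels of most tested histone genes. Of 45 tested genes 36 rose, against 36.1% of all genes tested, and 2 fell, against 31.3%. The median log2 fold change was 1.92 over the 45 genes and 0.14 over all genes. Many of the 45 passed the filter only through libraries with doxorubicin, which favours rises in these values. Libraries did not overlap in 38 genes that were higher in DOX, against 38.7% of all genes, and in 2 that were lower, against 33.8%. By class 9 of 9 H2B, 7 of 8 H3, 7 of 8 H4, 9 of 15 H2A and 4 of 5 H1 genes rose, and the 2 that fell were the H2A genes Hist1h2ao and Hist1h2ap. Of the 23 genes that shared under 50% of their 50-base words 21 rose and 0 fell, and of the other 22 genes 15 rose and 2 fell. Called in all 5 scalings were 22 rises and the same 2 falls, and 22 was also the count of rises under scaling to ribosomal protein genes, where the median of all genes moved by −0.87.

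Hist1h2ac, an H2A gene (chromosome 13, 23865450 to 23867931, GRCm39), had the largest rise among genes averaging at least 1 CPM. It was at 3.57, 2.72 and 2.48 CPM in DOX libraries and 5.02, 3.8 and 2.92 CPM in CFZ-DOX libraries, against 0.244, 0.138 and 0.0858 CPM in DMSO libraries. The lowest library with doxorubicin was above every DMSO library. The log2 fold change was 4.20 in DOX (SE 0.37, adjusted p = 3.65e-07) and 4.62 in CFZ-DOX (SE 0.37, adjusted p = 8.89e-08). Hist1h3d, an H3 gene (chromosome 13, 23759937 to 23761185), was at 2.35, 2.2 and 1.95 CPM in DOX and 4.59, 2.39 and 3.39 CPM in CFZ-DOX, against 0.163, 0.138 and 0.172 CPM in DMSO. Its log2 fold changes were 3.76 (SE 0.41, adjusted p = 2.36e-06) and 4.44 (SE 0.41, adjusted p = 2.94e-07), without overlap. Hist2h4, an H4 gene (chromosome 3, 96168998 to 96170627), was at 3.68, 3.45 and 3 CPM in DOX and 6.03, 5.42 and 7.57 CPM in CFZ-DOX, against 0.163, 0.436 and 0.401 CPM in DMSO. Its log2 fold changes were 3.32 (SE 0.33, adjusted p = 9.17e-07) and 4.23 (SE 0.33, adjusted p = 6.59e-08), and all 3 of these genes kept their calls under ribosomal protein scaling.

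**Figure D2:**
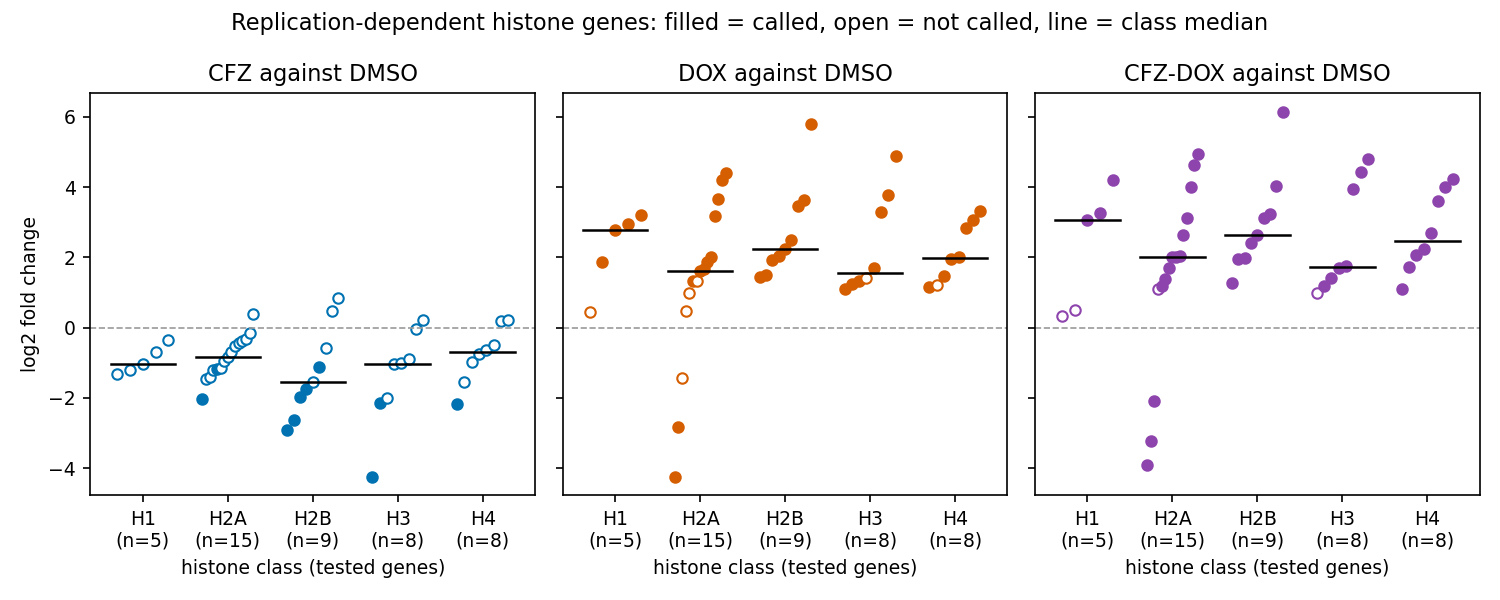
Log2 fold change of each of the 45 tested histone genes against DMSO, by class, in CFZ, DOX and CFZ-DOX. Filled points are called at an adjusted p under 0.05, open points are not, and lines are class medians. In CFZ the filled points (10) lie below 0, and in DOX 36 lie above 0 and 2 below.

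Other H1, H2B, H3 and H4 genes with high mean counts also rose in DOX. Hist1h3b, an H3 gene, averaged 1.9 ± 0.462 CPM in DOX and 0.0601 ± 0.00771 CPM in DMSO (log2 fold change 4.89, SE 0.37, adjusted p = 1.01e-07). Its DMSO libraries held 2, 3 and 2 counts, so the size of its rises against DMSO rests on few reads. Hist1h3i, also an H3 gene, averaged 0.878 ± 0.246 CPM in DOX and 0.084 ± 0.048 CPM in DMSO (3.29, SE 0.46, adjusted p = 2.23e-05). Hist1h1b and Hist1h1d, linker histone genes, averaged 1.37 ± 0.446 and 1.72 ± 0.233 CPM in DOX, against 0.146 ± 0.0128 and 0.25 ± 0.0991 CPM in DMSO, without overlap. Both rose, by log2 fold changes of 3.19 (SE 0.39) and 2.79 (SE 0.36). Hist1h4d and Hist1h4i, H4 genes, averaged 1.69 ± 0.396 and 4.88 ± 2.33 CPM in DOX, against 0.197 ± 0.0772 and 1.2 ± 0.237 CPM in DMSO. They rose by log2 fold changes of 3.07 (SE 0.39) and 2.01 (SE 0.43). Hist2h2be averaged 5.03 ± 1.05 CPM in DOX and 1.06 ± 0.217 CPM in DMSO (2.24, SE 0.27, adjusted p = 5.96e-06), and Hist1h2be 1.73 ± 0.451 and 0.46 ± 0.121 CPM (1.92, SE 0.35, adjusted p = 0.000218). The H2B gene Hist1h2bn, named after its values were seen, had 73 counts over the 3 DOX libraries and 1 count over the 3 DMSO libraries, a rate ratio of 78.2 with a 95% exact counting interval of 13.6 to 3132, and it shares 86.4% of its 50-base words with another gene.

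Hist1h1c and Hist1h2bc, the highest H1 and H2B genes, varied widely between replicates. Hist1h1c was at 46, 22.1 and 9.24 CPM in DOX and 17.4, 7.12 and 2.17 CPM in CFZ-DOX, against 9.96, 4.91 and 6.32 CPM in DMSO. DOX 3 and CFZ-DOX 2 lay within the range of DMSO and CFZ-DOX 3 below it. It was called higher in DOX (log2 fold change 1.87, SE 0.72, adjusted p = 0.0394) and not in CFZ-DOX (0.34, SE 0.71, adjusted p = 0.682). With ribosomal protein scaling it was called lower in CFZ-DOX (−1.45, edgeR adjusted p = 0.0378). The DOX call was lost without DOX 1, DOX 2, DMSO 2 or DMSO 3 (1.15 without DOX 1) with ribosomal protein scaling (0.86), with limma-voom (adjusted p = 0.0605) and with no filter on low counts (adjusted p = 0.115). Hist1h2bc was at 13.2, 5.86 and 4.35 CPM in DOX and 12.7, 4.9 and 3.16 CPM in CFZ-DOX, against 3.96, 2.46 and 2.26 CPM in DMSO. It was called in DOX (1.43, SE 0.49, adjusted p = 0.0179) and in CFZ-DOX (1.26, SE 0.49, adjusted p = 0.0306), and both calls were lost without replicate 1 of the drug group (0.82 and 0.47) and without DMSO 2 or DMSO 3. The DOX call was also lost with ribosomal protein scaling (0.46, adjusted p = 0.378). The CFZ-DOX call was also lost with library size (0.81, adjusted p = 0.111), limma-voom (adjusted p = 0.067) and no filter on low counts (adjusted p = 0.0769), and its sign turned with ribosomal protein scaling (−0.50). Hist1h2al, an annotated H2A pseudogene, was at 4.74, 2.26 and 1.16 CPM in DOX and 8.94, 2.75 and 1.39 CPM in CFZ-DOX, against 1.49, 1.01 and 0.715 CPM in DMSO. It was not called in DOX (1.34, SE 0.61, adjusted p = 0.0664; called at 1.22 with the replicate block) and was called in CFZ-DOX (2.02, SE 0.62, adjusted p = 0.00834), a call lost without CFZ-DOX 1 (0.94), with ribosomal protein scaling (0.24, adjusted p = 0.708) and with no filter on low counts (adjusted p = 0.0774). Hist1h1c held 16.4 to 38.4% of all histone counts in DOX libraries, 3.11 to 15.1% in CFZ-DOX, 20.1 to 33% in CFZ and 20.4 to 33.5% in DMSO. Without it the summed counts were 9.26 ± 2.12 CPM in CFZ, 59.1 ± 5.09 CPM in DOX and 67.3 ± 6.58 CPM in CFZ-DOX, against 20.7 ± 1.12 CPM in DMSO.

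**Figure D3:**
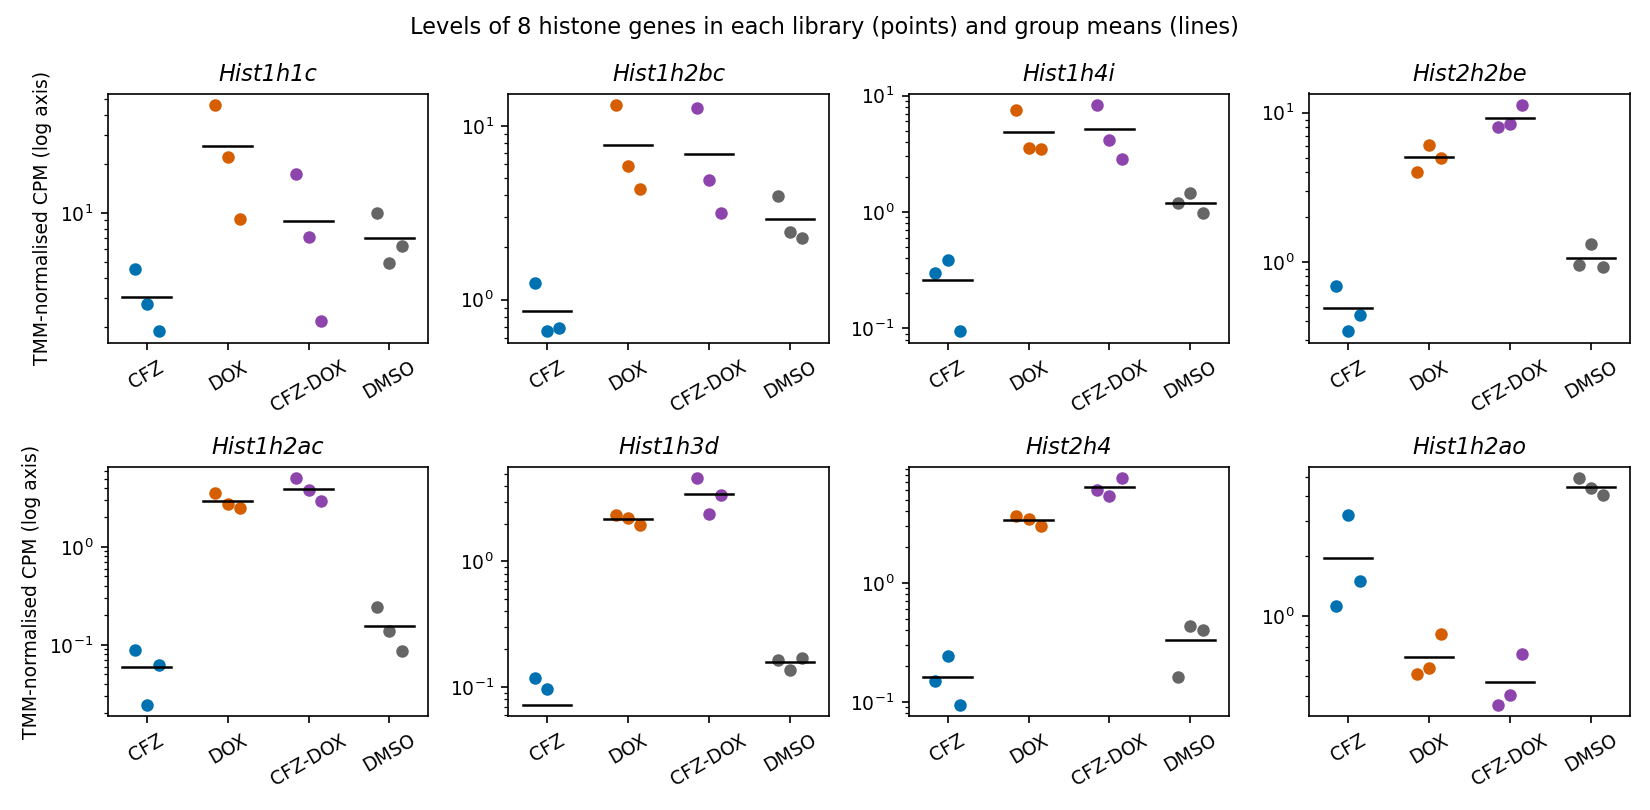
Normalised CPM of 8 histone genes in each library, on log axes, with the treated groups to the left of DMSO (points are libraries, lines are group means). Hist1h2ac, Hist1h3d and Hist2h4 show no overlap between libraries with doxorubicin and DMSO, Hist1h1c spreads from 9.24 to 46 CPM in DOX, and Hist1h2ao is lowest in DOX and CFZ-DOX. Hist1h3d had 0 counts in CFZ 3, which has no point.

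The H2A genes Hist1h2ao and Hist1h2ap moved against most of the rest. A further H2A gene, Hist1h2af, was at a log2 fold change of −1.42 in DOX without being called, and was called lower in CFZ-DOX. Hist1h2ao (chromosome 13, 21994635 to 21995114, GRCm39) was at 1.13, 3.21 and 1.5 CPM in CFZ, 0.514, 0.55 and 0.816 CPM in DOX and 0.359, 0.405 and 0.645 CPM in CFZ-DOX, against 4.91, 4.41 and 4.06 CPM in DMSO. Every treated library lay below every DMSO library. The log2 fold changes were −1.18 in CFZ (SE 0.33, adjusted p = 0.0154), −2.82 in DOX (SE 0.37, adjusted p = 1.25e-05) and −3.23 in CFZ-DOX (SE 0.39, adjusted p = 3.76e-06). The CFZ call was lost without CFZ 1, CFZ 3 or DMSO 1. Hist1h2ap (chromosome 13, 22017196 to 22017677) had 2 counts over the 3 DOX libraries and 2 over the 3 CFZ-DOX libraries, against 48 over the 3 DMSO libraries. The rate ratios were 0.0447 (95% exact counting interval 0.00526 to 0.17) and 0.0586 (0.0069 to 0.224). Both falls were called in all 5 scalings. Of the 50-base words of Hist1h2ao 93.5% also occur in Hist1h2ap, so reads of these genes cannot be told apart over most of their length. Per kilobase Hist1h2ao was the highest histone gene in DMSO, at a mean of 9.29 CPM per kb, against 0.978 in CFZ-DOX, where Hist1h2al (12.9), Hist1h4i (7.03), Hist1h2bc (5.98) and Hist1h1c (5.71 CPM per kb) were the highest.

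With both drugs, histone genes were again mostly higher than in vehicle. Of 45 tested genes 38 rose, against 39.3% of all genes, and 3 fell, against 35.7%, with a median log2 fold change of 2.08 over the 45 genes and 0.09 over all genes. The third fall was that of the H2A gene Hist1h2af, which averaged 0.0974 ± 0.0405 CPM in CFZ-DOX and 0.419 ± 0.298 CPM in DMSO with overlapping libraries (−2.10, SE 0.75, adjusted p = 0.0208). Libraries did not overlap in 35 genes higher in CFZ-DOX, against 39.1% of all genes, and in 2 that were lower, against 37.2%. Scaling to ribosomal protein genes, which moved the median of all genes by −1.65, left 17 rises and gave 5 falls, and 17 rises and 2 falls held in all 5 scalings. Hist2h2be was at 7.97, 8.46 and 11.3 CPM in CFZ-DOX, against 0.95, 1.31 and 0.916 CPM in DMSO (3.12, SE 0.27, adjusted p = 1.87e-07). Hist1h3b averaged 1.77 ± 0.408 CPM in CFZ-DOX and 0.0601 ± 0.00771 CPM in DMSO (4.79, SE 0.38, adjusted p = 6.99e-08). Of the 10 genes that fell in CFZ, 9 rose both in DOX and in CFZ-DOX (Hist1h2ab, Hist1h2bc, Hist1h2be, Hist1h2bl, Hist1h2bp, Hist1h3f, Hist1h3g, Hist1h4i and Hist2h2be), and Hist1h2ao fell in all. These comparisons share the DMSO libraries. Hist1h1e and Hist1h2ak were called in none of the 3 comparisons with DMSO.

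Against carfilzomib alone, cells with both drugs had higher levels of nearly every tested histone gene. Of 45 tested genes 41 rose, against 40.4% of all genes, and 2 fell, against 36.9%, the falls being Hist1h2ao and Hist1h2ap. The median log2 fold change was 3.60 over the 45 genes and 0.09 over all genes. Libraries did not overlap in 39 genes higher in CFZ-DOX, against 39.8% of all genes, and in 2 that were lower, against 38%. In all 5 scalings 28 rises and the 2 falls were called. Hist1h2ac averaged 3.92 ± 1.06 CPM in CFZ-DOX and 0.0588 ± 0.0326 CPM in CFZ (6.02, SE 0.44, adjusted p = 3.13e-08). Hist1h1b was at 3.52, 2.91 and 1.87 CPM in CFZ-DOX, against 0.0298, 0.0487 and 0.094 CPM in CFZ (5.52, SE 0.44, adjusted p = 7.3e-08). Hist1h3d averaged 3.46 ± 1.1 CPM in CFZ-DOX and 0.0721 ± 0.0634 CPM in CFZ (5.47, SE 0.46, adjusted p = 1.12e-07). The libraries of these 3 genes did not overlap.

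Against doxorubicin alone, the share of tested histone genes called higher with both drugs was near that of all genes. Of 45 tested genes 4 rose in CFZ-DOX relative to DOX, against 10.3% of all genes, and 0 fell, against 12% (unadjusted p under 0.05: 7 higher and 0 lower; DESeq2 and limma-voom also gave 0 lower). The median log2 fold change was 0.33 over the 45 genes and 0.03 over all genes. Libraries did not overlap in 12 genes higher in CFZ-DOX, against 16.1% of all genes, and in 0 that were lower, against 15.5%. The 4 were Hist1h1b (2.77 ± 0.835 CPM in CFZ-DOX and 1.37 ± 0.446 CPM in DOX, log2 fold change 1.01, SE 0.3, adjusted p = 0.027), Hist1h4d (3.25 ± 0.593 and 1.69 ± 0.396 CPM, 0.94, SE 0.31, adjusted p = 0.0414), Hist2h4 (6.34 ± 1.11 and 3.38 ± 0.345 CPM, 0.91, SE 0.27, adjusted p = 0.0275) and Hist2h2be (9.24 ± 1.8 and 5.03 ± 1.05 CPM, 0.88, SE 0.25, adjusted p = 0.021). None of the 4 was called when scaled to library size or to ribosomal protein genes, which gave 1 and 5 falls in place of 0. With the replicate number as a block 6 rose, Hist1h2be (0.74, adjusted p = 0.0312) and Hist4h4 (0.77, adjusted p = 0.0388; named after its values were seen) besides these 4, and Hist1h1c fell. Hist1h1c was lower in CFZ-DOX than in DOX in each of the 3 same-numbered pairs, at 17.4, 7.12 and 2.17 CPM in CFZ-DOX, against 46, 22.1 and 9.24 CPM in DOX. Its log2 fold change was −1.61 with the block (SE 0.32, adjusted p = 0.00184) and −1.53 without it (SE 0.72, adjusted p = 0.147). The H1 sum was lower in each pair, at 17.6, 11.4 and 7.43 CPM in CFZ-DOX, against 44.5, 26.8 and 14.5 CPM in DOX, although the groups overlap. That sum includes Hist1h1c, which held 1701, 725 and 351 of its 1872, 881 and 468 counts in DOX. In CFZ-DOX it held 486, 176 and 64 of 676, 332 and 210 counts. The lower H1 sum is therefore not a separate observation. Of the 5 tested H1 genes 4 had a log2 fold change above 0, and only Hist1h1c lay below 0. Without DOX 2 or DOX 3 1 rise was left, without CFZ-DOX 1, CFZ-DOX 2 or CFZ-DOX 3 2 were left, and 1 fall was called without CFZ-DOX 1.

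The interaction asks whether the effect of both drugs differs from the sum of their single effects on the log2 scale. It was positive and called for 8 of 45 tested histone genes, against 8.46% of all genes, and negative and called for 0, against 11.2% (unadjusted p under 0.05: 17 positive and 0 negative; DESeq2 and limma-voom also gave 0 negative). The median was 1.16 over the 45 genes and 0.04 over all genes. Hist1h2be had an interaction of 2.70 (SE 0.56, adjusted p = 0.00476): it fell by 1.98 in CFZ and rose by 1.92 in DOX, while CFZ-DOX, at 3.27, 2.83 and 2.48 CPM, was above DOX, at 2.25, 1.56 and 1.4 CPM, in every library. Hist1h1b had 2.33 (SE 0.67, adjusted p = 0.0247) and Hist1h4i 2.23 (SE 0.66, adjusted p = 0.0303). The call of Hist1h1b was lost without CFZ 1, CFZ 2, DMSO 2 or DMSO 3 (2.06 to 2.35, adjusted p = 0.0508 to 0.0685). That of Hist1h4i was lost without CFZ 1, CFZ 3, DOX 2, CFZ-DOX 1, DMSO 1 or DMSO 2 (1.68 to 2.30, adjusted p = 0.0546 to 0.0831) and with ribosomal protein scaling (1.54). Under ribosomal protein scaling, which moved the median of all genes by −0.69, 4 were called, and these 4 held in all 5 scalings (Hist1h1b, Hist1h2be, Hist1h2bl and Hist1h3g). Without DMSO 2, 4 were called.

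The 3 groups of annotated 3′ ends had similar shares of rises in DOX, where 36.1% of all genes rose and 31.3% fell. Among genes whose transcript runs at least 100 bases past the stem-loop 14 of 17 tested genes rose in DOX and 0 fell (median log2 fold change 2.01). Among those that end within 100 bases 11 of 13 rose and 2 fell (1.86), and among those without an annotated stem-loop 11 of 15 rose and 0 fell (1.70). In sums, genes that run past the stem-loop were at 50.5 ± 16.7 CPM in DOX and 13.6 ± 2.63 CPM in DMSO. Genes that end at it were at 9.77 ± 0.582 CPM in DOX and 7.49 ± 0.261 CPM in DMSO, a sum that holds Hist1h2ao. The differences between the 3 groups were not tested.

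**Figure D4:**
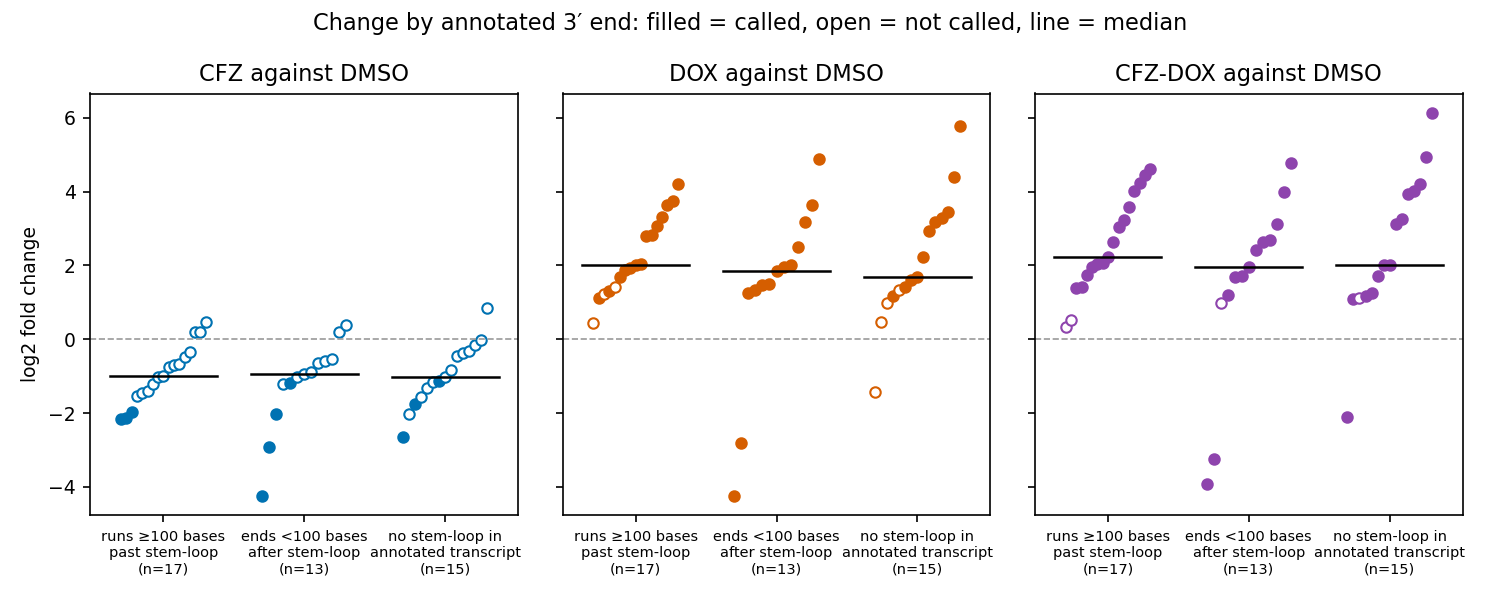
Log2 fold change of the 45 tested histone genes against DMSO in CFZ, DOX and CFZ-DOX, by where the annotated transcript ends relative to the stem-loop. Filled points are called, open points are not, and lines are medians, which in DOX are 2.01, 1.86 and 1.70.

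Many H2A and H2B genes lie head to head and are transcribed away from each other. There were 14 such pairs, with 175 to 305 bases between their starts, and both genes were tested in 7. In DOX both genes rose in 5 of the 7 pairs and 1 of the genes in the other 2. In CFZ-DOX both rose in 6. In CFZ both genes fell in 0 pairs and 1 gene in 4. Taken singly, 36 of the 45 tested histone genes rose in DOX and 38 in CFZ-DOX, and 10 fell in CFZ. Of all genes 36.1% rose in DOX, 39.3% rose in CFZ-DOX and 14.4% fell in CFZ. Whether paired genes moved together more often than other histone genes was not tested. The pair Hist1h2ac and Hist1h2bc, with 250 bases between their starts, rose by log2 fold changes of 4.20 and 1.43 in DOX. The promoters of Hist1h2ac and of the H3 gene Hist1h3b are shown as those of strongly raised genes, from 250 bases before to 50 after the start, taken from RefSeq (GRCm38.p6) at chr13:23683910-23684209, minus strand, and chr13:23752095-23752394, plus strand. Capitals mark TATAAA and CCAAT on either strand, the motifs searched.
Hist1h2ac promoter: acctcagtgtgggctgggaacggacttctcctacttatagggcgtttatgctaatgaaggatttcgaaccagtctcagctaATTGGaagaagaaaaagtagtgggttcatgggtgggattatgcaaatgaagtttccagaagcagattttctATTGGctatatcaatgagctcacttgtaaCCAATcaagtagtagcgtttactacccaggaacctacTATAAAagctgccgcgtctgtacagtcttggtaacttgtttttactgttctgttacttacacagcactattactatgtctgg
Hist1h3b promoter: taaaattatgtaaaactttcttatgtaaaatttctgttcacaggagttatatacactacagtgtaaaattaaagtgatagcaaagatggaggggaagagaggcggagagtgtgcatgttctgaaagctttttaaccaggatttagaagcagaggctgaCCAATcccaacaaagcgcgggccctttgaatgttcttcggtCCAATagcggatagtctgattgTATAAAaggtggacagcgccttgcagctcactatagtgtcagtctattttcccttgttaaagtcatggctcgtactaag
Of the 61 histone genes with a matched promoter 35 (57.4%) held TATAAA, against 14.2% of all 27025 promoters of that length, and 52 (85.2%) held CCAAT, against 37.9%. Both motifs lay in 29 (47.5%), against 5.55%. Windows of head-to-head genes can overlap, as those of Hist1h2bl and Hist1h2ai do, so a motif can be counted for both genes of a pair. All 9 promoters without CCAAT were those of H4 genes, of which 12 were matched. A match is a description of the letters and not of a bound site.

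Genes that make, process and degrade histone messages mostly fell with doxorubicin. Of 13 tested genes of histone transcription and 3′ processing 1 rose and 3 fell in CFZ, 2 rose and 8 fell in DOX and 3 rose and 8 fell in CFZ-DOX, each against DMSO. Of all genes tested 14.4% rose and 14.4% fell in CFZ, 36.1% rose and 31.3% fell in DOX, and 39.3% rose and 35.7% fell in CFZ-DOX. Their median log2 fold change was −0.52 in DOX, where that of all genes was 0.14. Slbp, the stem-loop binding protein, was at 33.9, 37.9 and 34.9 CPM in CFZ, 14.5, 15.3 and 19.8 CPM in DOX and 23.6, 19.6 and 30.4 CPM in CFZ-DOX, against 69.3, 74.7 and 80.1 CPM in DMSO. All treated libraries lay below DMSO (log2 fold changes −1.07, −2.18 and −1.61, SE 0.17 each). Npat was at 34.9, 37.4 and 38.7 CPM in CFZ, 8.12, 7.48 and 14.9 CPM in DOX and 7.86, 6.07 and 13 CPM in CFZ-DOX, against 41.4, 42.6 and 45 CPM in DMSO. It fell in DOX and CFZ-DOX (−2.08, SE 0.27, and −2.26, SE 0.28) and was not called in CFZ (−0.22, SE 0.26, adjusted p = 0.586). Casp8ap2, whose product binds U7 snRNP in histone processing, averaged 25.9 ± 4.12 CPM in DOX and 60.1 ± 3.7 CPM in DMSO (−1.21, SE 0.16). Zfp473, a U7 snRNP-associated zinc finger gene, rose in DOX (1.48 ± 0.502 CPM, against 0.669 ± 0.0736 CPM in DMSO; 1.15, SE 0.39).

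Of 9 genes of histone message decay 8 fell and 0 rose both in DOX (31.3% of all genes fell) and in CFZ-DOX (35.7%) against DMSO, while in CFZ 3 rose (14.4% of all genes) and 0 fell. Their median was −0.95 in DOX. Xrn1, the main cytoplasmic 5′ exonuclease, averaged 14.5 ± 1.04 CPM in DOX and 8.1 ± 1.17 CPM in CFZ-DOX, against 44.9 ± 1.6 CPM in DMSO (−1.63 and −2.47, SE 0.14 each). Eri1, the exonuclease that trims the stem-loop end, averaged 48.8 ± 10.2 CPM in DOX and 114 ± 5.9 CPM in DMSO (−1.23, SE 0.22). Of 9 genes of S phase entry 6 fell in CFZ (14.4% of all genes), 6 fell and 1 rose in DOX (31.3% and 36.1%), and 7 fell and 1 rose in CFZ-DOX (35.7% and 39.3%). The gene that rose in both was E2f2, an activating E2F factor, at 18.8 ± 0.149 CPM in DOX and 32.8 ± 3.37 CPM in CFZ-DOX, against 11.3 ± 1.79 CPM in DMSO. Ccna2, the S phase cyclin A2, averaged 27.5 ± 9.54 CPM in DOX and 169 ± 17.6 CPM in DMSO (−2.62, SE 0.25). Of 10 histone chaperone and import genes 2 rose and 5 fell in DOX, where 36.1% and 31.3% of all genes did. In CFZ 0 rose and 3 fell (14.4% of all genes each), and in CFZ-DOX 1 rose and 6 fell (39.3% and 35.7%). Chaf1a averaged 32.3 ± 2.26 CPM in DOX and 139 ± 4.32 CPM in DMSO (−2.10, SE 0.12). Rbbp7 averaged 578 ± 84.5 CPM in DOX and 365 ± 7.55 CPM in DMSO (0.66, SE 0.20).

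Histone variant genes, most of them with polyadenylated messages, served for comparison. Among them H2ax is known to make both a stem-loop-ended and a polyadenylated message. Of 10 tested variant genes 8 fell and 0 rose in CFZ, 4 rose and 2 fell in DOX, and 4 rose and 6 fell in CFZ-DOX, against DMSO. Of all genes 14.4% fell in CFZ, 36.1% rose and 31.3% fell in DOX, and 39.3% rose and 35.7% fell in CFZ-DOX, so the DOX counts were near those shares. The median log2 fold changes of the variant genes were −0.95 in CFZ, 0.30 in DOX and −0.43 in CFZ-DOX. Without H2ax, a choice made after the data were seen, 9 genes were left, of which 7 fell in CFZ, 4 rose and 1 fell in DOX, and 4 rose and 5 fell in CFZ-DOX. H3f3a, which encodes the variant H3.3, averaged 353 ± 77.7 CPM in DOX and 157 ± 13 CPM in DMSO (1.17, SE 0.22), while H1f0, a linker histone variant, averaged 35.1 ± 8.43 CPM in DOX and 321 ± 18.3 CPM in DMSO (−3.19, SE 0.18). The difference between the replication-dependent and the variant genes was not tested.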

How the data were processed

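Polyadenylated RNA of 12 libraries, 3 in each of 4 groups, was analysed, with groups and replicate numbers read from the titles of the samples. The deposited table held the authors' raw counts, unnormalised, for each Ensembl gene, with positions and exon lengths. Trimmomatic 0.39, STAR 2.7.9a, featureCounts and Subread 2.0.2 with GRCm39 are named in the submitters' processing notes. The annotation release, strand setting and treatment of reads with several matches are not given in the sources used here. Symbols came from GENCODE M21 and matched 52073 of 56980 IDs (91.4%). The table held 0 columns of other samples.

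Low counts were filtered by filterByExpr of edgeR 4.0.16 in R 4.3.3 (a minimum count of 10 and a minimum total of 15), leaving 16648 genes. The test was the quasi-likelihood F test with a robust fit and TMM scaling, in 1 model over the 12 libraries, with Benjamini-Hochberg adjustment over all genes. Called means an adjusted p under 0.05. Fold changes used a prior count of 0.125 and SE is the absolute log2 fold change over the square root of F. "Rose" and "fell" are used of called genes, and of sums whose libraries do not overlap. CPM values, those of summed markers included, are TMM-normalised with mean ± SD. Sums of histone genes are instead scaled to the library total. Sums were compared by two-sided exact permutation. Counting intervals and the limit of 3 counts behind a count of 0 cover counting error only.

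The members and lists were chosen with earlier results of these data known. Values are given for the 3 tested genes of each class with the highest mean, and per comparison, for up to 3 called rises and 3 called falls whose mean reached 1 CPM, and genes added after their values were seen are said to be so. Of the partner lists up to 3 called genes each are named, with Slbp and Npat always. Stem-loops were searched in GENCODE M21 transcripts and promoters taken from RefSeq tables, 61 of 70 genes being matched. The test was checked on simulated counts.

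Replicates differed by more than sampling noise (chi-square per degree of freedom 13.06 to 30.38 in CFZ and DMSO, 49.55 to 119.8 in DOX and CFZ-DOX). Deviations from the group means correlated between libraries sharing a replicate number for CFZ and DMSO (r across genes 0.377, 0.303 and 0.416), DOX and DMSO (0.251, 0.256 and 0.207) and CFZ-DOX and DOX (0.581, 0.353 and 0.654), so those comparisons count as paired. For CFZ-DOX and DMSO r was 0.294, 0.058 and 0.0799, and for CFZ-DOX and CFZ 0.263, 0.0186 and 0.0987, so these do not count as paired. The pairing rests on such correlations and on no label. The main calls come from the model without a block. Alternatives were 4 other scalings, DESeq2 1.42.0, limma-voom (limma 3.58.1), no filter, a stricter threshold, a block for the replicate number, fits to only the 6 libraries compared, leaving out each library and, added after the data were seen, leaving out DOX 3 and CFZ-DOX 3 together.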

Additional observations from a re-analysis of the deposited data

Results flagged for a closer look

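The interaction of both drugs was called in 8 histone genes, which means that the effect of CFZ differed with and without DOX. The values, on the log2 scale, were 2.33 for Hist1h1b, 2.70 for Hist1h2be, 3.22 for Hist1h2bl, 2.01 for Hist2h2be, 2.42 for Hist1h3f, 4.11 for Hist1h3g, 2.23 for Hist1h4i and 1.90 for Hist2h4. Those of Hist1h3g and Hist1h2bl depend on the prior count, since each had 1 count over the 3 CFZ libraries. Hist1h3g had 1 count in CFZ and 28 in DMSO, a rate ratio of 0.0387 with a 95% exact counting interval of 0.000945 to 0.234. Hist1h2bl had 1 and 9 counts in CFZ and DMSO, a rate ratio of 0.12 (0.00274 to 0.868). Hist1h3f, an H3 gene, was at 0.0595, 0.0243 and 0.0627 CPM in CFZ, 0.406, 0.611 and 0.421 CPM in DOX and 0.61, 0.566 and 0.577 CPM in CFZ-DOX, against 0.217, 0.161 and 0.286 CPM in DMSO, so that CFZ was below and both doxorubicin groups above every DMSO library. Hist2h4, an H4 gene, had an interaction with SE 0.5 and an adjusted p of 0.0169 by edgeR, and CFZ-DOX lay above DOX in every library.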

How the results depend on the processing

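The counts of rises and falls against DMSO and against CFZ stayed within 1.5 times under the alternatives, except as given here. Scaling to ribosomal protein genes gave 22 rises in DOX, 17 rises and 5 falls in CFZ-DOX against DMSO, 0 rises and 5 falls in CFZ-DOX against DOX and 4 positive interactions. At an adjusted p under 0.01 there were 4 falls in CFZ, 1 fall in CFZ-DOX against CFZ, 0 rises in CFZ-DOX against DOX and 3 interactions. The rises in CFZ-DOX against DOX numbered 7 with DESeq2, 0 with library size, 0 with only the 6 libraries compared and 2 without both DOX 3 and CFZ-DOX 3, and its falls numbered 1 with library size and 1 with the replicate block. Leaving out 1 library at a time gave 6 to 10 falls in CFZ, 31 to 37 rises in DOX, 33 to 38 in CFZ-DOX against DMSO, 36 to 41 against CFZ, 1 to 4 rises and 0 to 1 fall against DOX and 4 to 9 interactions.

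The log2 ratio of summed counts was 0.78 for DOX against DMSO, 0.07 for CFZ-DOX against DMSO, 1.28 against CFZ and −0.71 against DOX with ribosomal protein scaling. With TMM scaling it was 1.76 for CFZ-DOX against DMSO and 0.04 against DOX, where it was −0.17 per library total. Leaving out 1 library gave −0.31 to 0.03 for CFZ-DOX against DOX, the highest without DOX 1. Hist1h1c in CFZ-DOX against DMSO reversed to −1.45 with ribosomal protein scaling and was then called lower (edgeR adjusted p = 0.0378). Without being called, it was −0.15 with library size, −0.07 with limma-voom and −0.00 with the replicate block. Without CFZ-DOX 1 it was −0.61, also not called (range −0.61 to 0.80 with a library left out). Hist1h2bc in CFZ-DOX against DMSO was −0.50 with ribosomal protein scaling, under which Hist1h4i (0.36, adjusted p = 0.404) and Hist1h2al (0.24) in CFZ-DOX and Hist1h2bc (0.46) and Hist1h1c (0.86) in DOX lost their calls against DMSO. In CFZ against DMSO, where neither gene was called, Hist1h3i was 0.12 with limma-voom and −0.39 to 0.27 with a library left out, and Hist1h4d −0.24 to 0.55. The cause of these changes was not tested. With the replicate block the paired comparisons gave 12 falls in CFZ, 38 rises and 3 falls in DOX and 6 rises and 1 fall in CFZ-DOX against DOX, and 42 rises in CFZ-DOX against CFZ and 10 interactions. It changed the calls of Hist1h1c in CFZ, of Hist1h2al in DOX and of Hist1h1c, Hist1h2be and Hist4h4 in CFZ-DOX against DOX, given with those genes. Low counts limit the values of single genes in CFZ, where 6 to 13 genes a library had at least 10 counts.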
